A study of Mus musculus with 6 samples.

Results

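Heat shock proteins are molecular chaperones that bind unfolded or misfolded proteins. The small heat shock proteins hold such proteins without using ATP, the HSP70 and HSP90 machines refold them in cycles of ATP hydrolysis, and the DnaJ proteins (J-domain cochaperones) bring clients to HSP70 and start its ATPase. BAG proteins release the nucleotide from HSP70. Muscle is rich in small heat shock proteins, which bind the contractile lattice and the filaments that anchor it.

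The genes were the rows of a quadriceps expression table whose symbols name a small heat shock protein (Hspb, with Cryab), an HSP70 (Hspa), HSP90, HSP110 (Hsph1) or mitochondrial chaperonin (Hspd1, Hspe1) gene, a DnaJ gene or a BAG gene, with a mean of at least 1 FPKM over the 6 libraries. There were 71 such genes among 23314 rows: 8 small heat shock protein genes, 13 HSP70, 3 HSP90, 1 HSP110, 2 mitochondrial chaperonin, 6 BAG and 38 DnaJ genes. FPKM corrects a level for the length of the transcript and the size of the library, so that different genes can be compared. Another 5 matching rows lay below 1 FPKM: Hspb9, Dnajb3, Dnajb13, Dnajc6 and a second row with the symbol Hspa14. Just inside the threshold stood Dnajc22 and Hspa12a, with means of 1.00 and 1.06 FPKM, and just outside stood the second Hspa14 row and Dnajb3, with 0.344 and 0.126 FPKM.

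RNA was sequenced from the quadriceps, the large muscle of the front of the thigh, of mice aged 2 months. K15SKO mice carried Cre recombinase under Myogenin, a gene switched on as muscle cells differentiate, together with 2 floxed copies of Klf15 (Myogenin-Cre/+;K15F/F), and MyoCre mice carried the Cre alone (Myogenin-Cre/+). The design text gives n = 4, and 3 libraries of each group were analysed here. Nothing in the labels says that these came from separate mice, and the spread behind each p-value is that of these samples, which may be technical. Klf15, the deleted transcription factor gene, was listed at 2.22, 21.7 and 5.32 FPKM across K15SKO 1 to 3, versus 35.2, 28.4 and 30.5 FPKM across MyoCre 1 to 3. The smallest reduction was in K15SKO 2, at 69.3% of the MyoCre mean, and the limma adjusted p of Klf15 was 0.273. K15SKO 2 also held liver transcripts (below), and their part in its Klf15 level was not tested.

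The K15SKO libraries differed among themselves, and each result below is therefore given by library. Log2 values of K15SKO 3 over the 11607 genes tested had correlations of 0.942 and 0.880 with K15SKO 1 and 2. Its correlations with the MyoCre libraries were 0.968 to 0.975, so it lay nearer to the other group than to its own. K15SKO 1 had correlations of 0.928 to 0.936 with the MyoCre libraries, above its 0.915 with K15SKO 2 and below its 0.942 with K15SKO 3. The lowest correlations of every other library were those with K15SKO 2, at 0.870 to 0.915. In K15SKO 2 the 12 liver genes summed to 5667 FPKM, against 0.790 to 3.91 FPKM in MyoCre. FPKM sums were 401505, 396375 and 466756 in K15SKO 1 to 3 and 399372, 397426 and 423214 in MyoCre 1 to 3. Read depth relative to MyoCre 1, taken from the steps between values under 0.1 FPKM, was 0.779, 1.56 and 0.901 in K15SKO 1 to 3, against 1.08 and 1.33 in MyoCre 2 and 3. The absolute depth is unknown. Mylpf, a fast myosin light chain, was at 9578 to 13469 FPKM in all 6 libraries, while 2 other fast-fibre markers were listed at 0 in one group each, Myh1 in all K15SKO libraries and Pvalb in all MyoCre libraries.

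Small heat shock protein genes stood further above the MyoCre libraries than the other families did in K15SKO 1 and 2. Their 8 levels summed to 10699, 8458 and 2622 FPKM across K15SKO 1 to 3, versus 2262, 1862 and 2106 FPKM across MyoCre 1 to 3. These sums were 5.15, 4.07 and 1.26 times the MyoCre mean. As a share of all FPKM in a library they were 2.66%, 2.13% and 0.562% across K15SKO 1 to 3. The shares across MyoCre 1 to 3 were 0.566%, 0.469% and 0.498%, so by share K15SKO 3 lay within the MyoCre range. Among the other 63 genes the sums were 2661, 2662 and 2852 FPKM across K15SKO 1 to 3, versus 2433, 2317 and 2710.0 FPKM across MyoCre 1 to 3. In limma's test across all 11607 genes, none of the 71 passed an adjusted p of 0.05, where 0.0517% of all genes did (6 genes). Myh1 and Pvalb, each listed at 0 in all libraries of one group, were among these 6. At an unadjusted p under 0.05 there were 14 of the 71, against 16.5% of all genes tested. Of the 14, 12 were higher in K15SKO and 2 were lower, where 8.43% of all genes were higher and 8.12% lower. Small heat shock protein genes, counted by name and so with Hspb11, made up 6 of those 12. In the remaining 63 genes, 6 were higher (9.52%) and 2 lower (3.17%), a share of higher genes near the background.

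**Figure D1:**
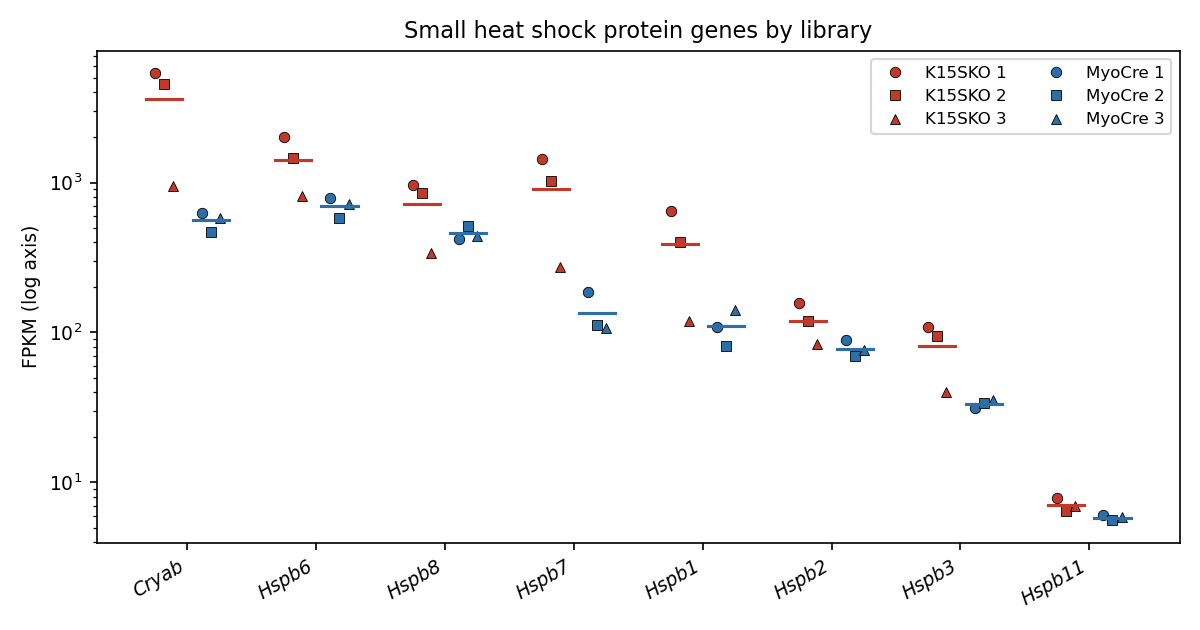
Level of each small heat shock protein gene in FPKM (log axis) in the 3 K15SKO libraries (red) and the 3 MyoCre libraries (blue), with horizontal bars for group means. K15SKO 1 and 2 lie above every MyoCre library for all 8 genes, and K15SKO 3 does for 5 of them. K15SKO 3 ranges from 338 against a MyoCre mean of 459.6 FPKM for Hspb8 to 273 against 135 FPKM for Hspb7.

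The upstream sequences of these genes were searched for matches to a short form of the heat shock element, the site bound by heat shock factors. The element was searched as 2 inverted units, GAANNTTC or TTCNNGAA, on both strands at once, since each form is its own reverse complement. The windows are the 250 bases before a gene's start, from RefSeq on GRCm38.p6, and 56 of the 71 genes matched a window. Of the small heat shock protein genes, Cryab and Hspb2 had no window and their upstream sequence was not analysed here. Elements are in capitals. Hspb1 held 2 of them and Hspb3 held 1, Hspb7 and Hspb8 held none, and the classical stress gene Hspa1a held 1.

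Hspb7 (chr4:141420529-141420778, plus strand): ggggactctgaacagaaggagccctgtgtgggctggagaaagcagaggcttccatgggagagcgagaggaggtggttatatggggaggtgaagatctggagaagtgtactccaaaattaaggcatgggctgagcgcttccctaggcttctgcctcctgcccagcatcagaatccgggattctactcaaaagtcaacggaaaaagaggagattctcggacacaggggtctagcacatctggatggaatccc
Hspb1 (chr5:135887669-135887918, plus strand): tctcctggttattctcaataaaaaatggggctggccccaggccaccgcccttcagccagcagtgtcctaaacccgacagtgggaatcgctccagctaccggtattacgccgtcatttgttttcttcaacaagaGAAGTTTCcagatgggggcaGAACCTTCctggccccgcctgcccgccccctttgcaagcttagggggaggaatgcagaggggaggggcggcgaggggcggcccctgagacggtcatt
Hspb8 (chr5:116422865-116423114, minus strand): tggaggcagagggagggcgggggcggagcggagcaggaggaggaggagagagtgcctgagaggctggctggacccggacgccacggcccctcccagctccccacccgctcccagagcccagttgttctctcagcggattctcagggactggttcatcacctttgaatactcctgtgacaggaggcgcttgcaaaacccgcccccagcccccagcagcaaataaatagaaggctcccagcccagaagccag
Hspb3 (chr13:113663677-113663926, minus strand): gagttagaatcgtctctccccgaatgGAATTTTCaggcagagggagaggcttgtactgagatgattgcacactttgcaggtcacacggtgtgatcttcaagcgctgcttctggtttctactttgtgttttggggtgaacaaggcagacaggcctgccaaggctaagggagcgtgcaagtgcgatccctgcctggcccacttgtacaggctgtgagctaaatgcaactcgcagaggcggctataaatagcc
Hspa1a (chr17:34972157-34972406, minus strand): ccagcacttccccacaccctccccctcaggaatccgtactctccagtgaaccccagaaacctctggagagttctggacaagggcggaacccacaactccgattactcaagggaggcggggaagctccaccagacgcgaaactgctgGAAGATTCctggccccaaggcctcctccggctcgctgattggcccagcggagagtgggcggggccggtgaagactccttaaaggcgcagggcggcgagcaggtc

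Shorter stretches of 30 bases show the element before one of the start sites of Hspb6 and the 2 elements before one start site of Dnaja4. The last stretch is the run of overlapping elements between one start site of Hspd1 and the start site of Hspe1. These 2 genes are read in opposite directions, and the window of the other Hspd1 start site held 0 elements.

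Hspb6 (chr7:30553170-30553199, plus strand): aagtaattattGAAGTTTCtaaataaggaa
Dnaja4 (chr9:54699458-54699487, plus strand): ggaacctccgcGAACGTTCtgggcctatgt
Dnaja4 (chr9:54699496-54699525, plus strand): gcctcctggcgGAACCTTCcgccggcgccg
Hspe1 (chr1:55088053-55088082, plus strand): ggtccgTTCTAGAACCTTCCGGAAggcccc

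The element was present for 14 of the 56 matched genes (25.0%), against 14.5% of 27025 genes in the table of windows. By family it was found for 3 of 6 small heat shock protein genes, 2 of 10 HSP70, 1 of 1 HSP110, 0 of 1 HSP90, 2 of 2 mitochondrial chaperonin, 2 of 4 DnaJ A, 2 of 9 DnaJ B, 2 of 18 DnaJ C and 0 of 5 BAG genes. The longer form with 3 alternating units (GAANNTTCNNGAA or TTCNNGAANNTTC), which contains the shorter one, was found for 3 of the 56 genes (5.36%), against 0.514% of all genes. These 3 were Hspd1, Hspe1 and Dnajb6. CACCC or its reverse complement GGGTG, a short sequence of the kind that Krüppel-like factors bind, lay in the windows of 34 of the 56 genes (60.7%), against 54.5% of all genes, and of 3 of 6 small heat shock protein genes. A match is a description of the letters in the window, not evidence of a bound site.

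Cryab encodes alpha-B crystallin, which binds desmin and the Z disc (chromosome 9, 50751325 to 50756636, plus strand, GRCm38). It was at 5368, 4517 and 942 FPKM across K15SKO 1 to 3, versus 629.6, 467 and 582 FPKM across MyoCre 1 to 3. Those K15SKO values are 9.59, 8.07 and 1.68 times the MyoCre mean, and the groups did not overlap. The log2 difference, on the log2(FPKM + 1) scale used throughout, was 2.35 (SE 0.65, limma adjusted p = 0.272).

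Hspb7, the cardiovascular heat shock protein that associates with filamin C, is encoded on the plus strand of chromosome 4, bases 141420779 to 141425311. It stood at 1442, 1019 and 273 FPKM across K15SKO 1 to 3, versus 186, 112 and 107 FPKM across MyoCre 1 to 3. All 3 K15SKO libraries were above all MyoCre libraries, at 10.7, 7.55 and 2.02 times the MyoCre mean. With a log2 difference of 2.49 (SE 0.62, limma adjusted p = 0.267) it had the smallest p of the 71 genes.

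Hspb1, the 25-kDa heat shock protein that stabilises actin filaments, was at 651, 402 and 119.8 FPKM across K15SKO 1 to 3, versus 108, 81.4 and 140.1 FPKM across MyoCre 1 to 3. K15SKO 3 lay within the MyoCre values, so the groups overlapped (log2 difference 1.55, SE 0.61, limma adjusted p = 0.293). Hspb6, known as Hsp20, was at 2000.1, 1446 and 819 FPKM across K15SKO 1 to 3, versus 789, 579 and 718 FPKM across MyoCre 1 to 3. Its groups did not overlap, although K15SKO 3 exceeded the highest MyoCre library only slightly (log2 difference 0.95, SE 0.33, limma adjusted p = 0.280).

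Hspb8 works with Bag3 in the disposal of damaged Z disc proteins. It was at 966, 851 and 338 FPKM across K15SKO 1 to 3, versus 423, 513 and 443 FPKM across MyoCre 1 to 3, so K15SKO 3 was below all MyoCre libraries while the other K15SKO libraries were above them (log2 difference 0.51, SE 0.40, limma adjusted p = 0.479).

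Hspb3 and Hspb2 encode partners in a muscle-specific complex. Hspb3 was at 108, 95.4 and 39.9 FPKM across K15SKO 1 to 3, versus 31.4, 33.7 and 35.5 FPKM across MyoCre 1 to 3, with no overlap (log2 difference 1.13, SE 0.37, limma adjusted p = 0.273). Hspb2 was at 157, 120.1 and 83.3 FPKM across K15SKO 1 to 3, versus 88.6, 69.7 and 75.9 FPKM across MyoCre 1 to 3, and its groups overlapped (log2 difference 0.58, SE 0.24, limma adjusted p = 0.303). The annotated gene bodies of Hspb2 and Cryab overlap by 1030 bases on opposite strands, and with library strandedness not given in the sources used here, reads of the overlap cannot be assigned with certainty. Hspb11, which carries a heat shock name but is a subunit of the intraflagellar transport machinery, was the lowest of the 8 at 7.89, 6.48 and 6.95 FPKM across K15SKO 1 to 3, versus 6.05, 5.60 and 5.85 FPKM across MyoCre 1 to 3 (limma adjusted p = 0.300).

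The order of the small heat shock protein genes by level differed between libraries. Cryab was first in all 3 K15SKO libraries and took 50.2%, 53.4% and 35.9% of the summed level in K15SKO 1 to 3, against 27.8%, 25.1% and 27.6% in MyoCre 1 to 3. Hspb6 was first in all 3 MyoCre libraries, with 34.9%, 31.1% and 34.1% of the sum. Hspb7 ranked 3, 3 and 4 across K15SKO 1 to 3, against 4, 4 and 5 across MyoCre 1 to 3. Hspb2, Hspb3 and Hspb11 held ranks 6, 7 and 8 in every library.

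**Figure D2:**
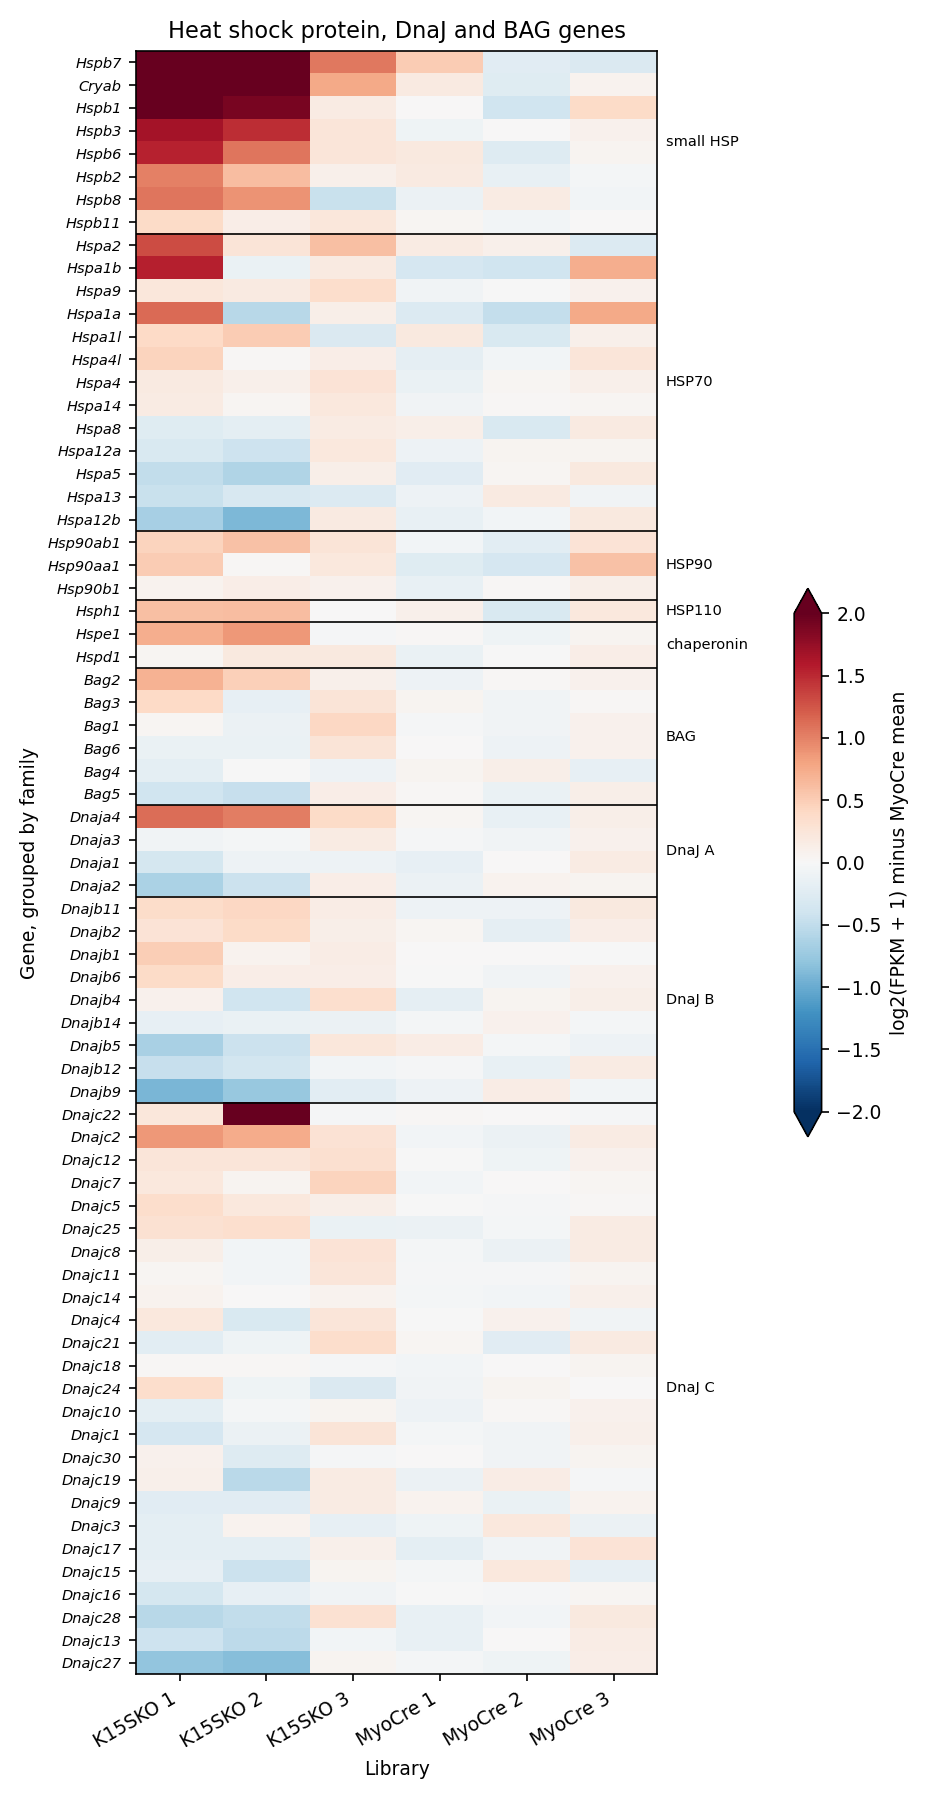
Difference of each of the 71 genes (rows, by family) from the MyoCre mean on the log2(FPKM + 1) scale in each library (columns); red is higher, blue is lower, and colours saturate at 2 in either direction. The strongest red block is the small heat shock protein family in K15SKO 1 and 2, where the medians were 1.60 and 1.28, against 0.23 in K15SKO 3.

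Seen against other genes, the position of the libraries was as follows. In K15SKO 1, 8 of 8 small heat shock protein genes lay above every MyoCre library, where 37.2% of all genes tested did. In K15SKO 2 it was again 8 of 8, against 33.4% of all genes. In K15SKO 3 it was 5 of 8, against 36.1%, with Hspb8 below every MyoCre library and Hspb1 and Hspb2 within their range. For the other 63 genes the counts above the MyoCre libraries were 27, 20 and 30 in K15SKO 1 to 3, and the counts below were 23, 28 and 7. The backgrounds for below were 43.2%, 43.8% and 25.3%.

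With K15SKO 3 left out, which the labels give no ground for, limma called 20 of the 71 genes at an adjusted p under 0.05 (28.2%), against 23.6% of all genes tested. Of these, 11 were higher in K15SKO (background 10.8%) and 9 lower (background 12.8%). The 11 comprised 7 of the 8 small heat shock protein genes, all but Hspb11, with Bag2, Dnaja4, Dnajc2 and Hspe1. The 9 were Bag5, Dnaja2, Dnajb5, Dnajb9, Dnajc13, Dnajc27, Dnajc28, Hspa12b and Hspa5. With array weights, which weigh libraries by their fit over all genes, limma called 16 of the 71 genes (22.5%), against 20.7% of all genes. Of these, 13 were higher (background 10.7%) and 3 lower (background 9.94%), and 14 genes were called in both fits. In the weighted fit K15SKO 2, the library with the liver transcripts, counted for more than in the main fit. For example, Dnajc22 stood 0.23, 2.73 and −0.03 from the MyoCre mean on the log2 scale in K15SKO 1 to 3. Its log2 difference was 0.98 in the main fit and 1.88 with array weights. Log2 differences in the fit without K15SKO 3 were 3.15 for Cryab (SE 0.16, limma adjusted p = 0.00176), 3.20 for Hspb7 (SE 0.29, adjusted p = 0.00701), 2.24 for Hspb1 (SE 0.30, adjusted p = 0.0127) and 1.57 for Hspb3 (SE 0.10, adjusted p = 0.00332). For each of these genes K15SKO 3 was the K15SKO library nearest to the MyoCre mean. Leaving it out had to raise the difference, so these p-values describe that fit and do not test the genes. Without any other single library, 0 of the 71 genes were called by limma, with 4 to 9 higher and 0 to 2 lower at an unadjusted p under 0.05, where 3.68% to 6.16% of all genes were higher and 3.61% to 5.31% lower. The median log2 difference of the 8 small heat shock protein genes was 1.04 with all 6 libraries, and 0.76, 0.92 and 1.44 without K15SKO 1, 2 and 3.

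**Figure D3:**
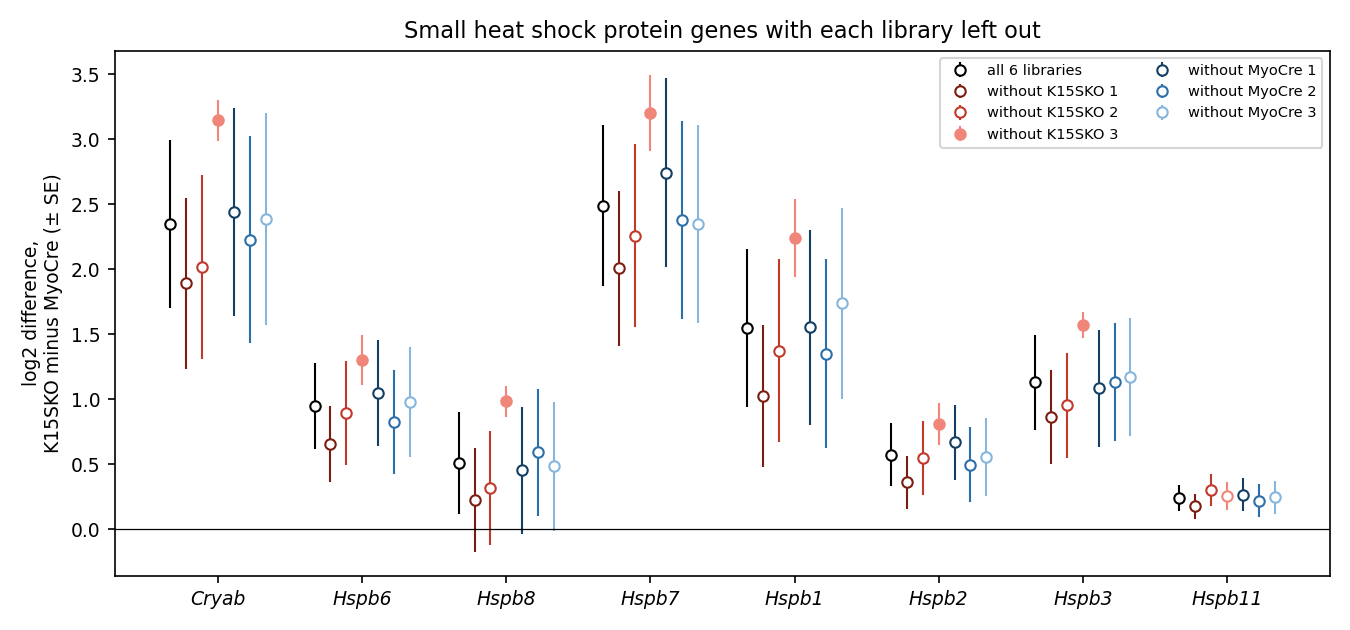
Log2 difference (K15SKO minus MyoCre, error bars are the SE) of the 8 small heat shock protein genes with all 6 libraries and with each library left out in turn; filled symbols passed a limma adjusted p of 0.05. All symbols lie above 0, and the filled ones belong to the fit without K15SKO 3 alone, where 7 of 8 genes passed.

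Marker lists of other cell types and fibre states also differed between the K15SKO libraries. Genes of regenerating or denervated muscle, all 7 of which were measured, summed to 76.4, 65.1 and 12.3 FPKM across K15SKO 1 to 3, versus 6.77, 7.45 and 7.99 FPKM across MyoCre 1 to 3. Among them Myog, the muscle differentiation factor that also drives the Cre, was at 31.9, 27.3 and 3.90 FPKM across K15SKO 1 to 3, versus 2.36, 2.20 and 1.84 FPKM across MyoCre 1 to 3. The 10 macrophage markers summed to 342, 191 and 39.4 FPKM across K15SKO 1 to 3, versus 43.4 to 52.2 FPKM in MyoCre, and none was at 0 in any library. Lyz2, the highest of them by mean level, was at 173, 83.6 and 18.6 FPKM across K15SKO 1 to 3, versus 22.8, 22.3 and 18.7 FPKM across MyoCre 1 to 3. Cd68, a lysosomal protein of macrophages, was at 43.8, 43.6 and 1.24 FPKM across K15SKO 1 to 3, versus 0.895, 1.45 and 1.11 FPKM across MyoCre 1 to 3. The macrophage list had a median log2 difference from the MyoCre mean of 1.87, 1.02 and −0.17 in K15SKO 1 to 3. The part of these transcripts in the small heat shock protein levels was not tested. In bulk tissue, more cells of a type and more RNA per cell cannot be told apart.

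The slow-fibre list had a median difference from the MyoCre mean of 2.50, 0.35 and 3.08 in K15SKO 1 to 3, against 0.62, 1.04 and −1.76 in MyoCre 1 to 3, with none at 0. Of the 9 markers, 9, 3 and 9 lay above every MyoCre library in K15SKO 1 to 3. The 3 in K15SKO 2 were Myoz2, Casq2 and Tnni1, at 93.7, 24.5 and 19.2 FPKM there. The part of slow-fibre transcripts in the small heat shock protein levels was not tested. The 12 liver genes had medians of 1.92, 7.77 and 0.50 in K15SKO 1 to 3. Up to 6 of them were at 0 in a MyoCre library, and Alb, serum albumin, was at 21.1, 2203 and 4.36 FPKM across K15SKO 1 to 3, versus 1.13, 0.298 and 0.311 FPKM across MyoCre 1 to 3. Without K15SKO 2 the log2 differences of Cryab and Hspb7 were 2.02 and 2.26 (limma adjusted p = 0.429 and 0.410). Immediate early genes, which respond to handling among other stimuli, had medians of 1.37, 0.93 and 0.41 in K15SKO 1 to 3, against −0.11 to 0.08 in MyoCre. Atf3, a stress-induced transcription factor of that list, was at 41.2, 24.2 and 10.1 FPKM across K15SKO 1 to 3, versus 3.89, 5.37 and 9.54 FPKM across MyoCre 1 to 3. Their part was not tested either. Adipocyte, endothelial and fibroblast markers had medians of −2.54 to −1.84, −0.55 to 0.27 and −0.23 to 1.08 over the K15SKO libraries. The 5 measured neutrophil and lymphocyte markers summed to 0.273 to 2.34 FPKM in K15SKO and to 0.588 to 0.833 FPKM in MyoCre, with Ms4a1, Cd3e, Cd79a or S100a8 at 0 in one library or another. Fast-fibre markers had medians of −0.83, −0.64 and 0.14 in K15SKO 1 to 3.

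**Figure D4:**
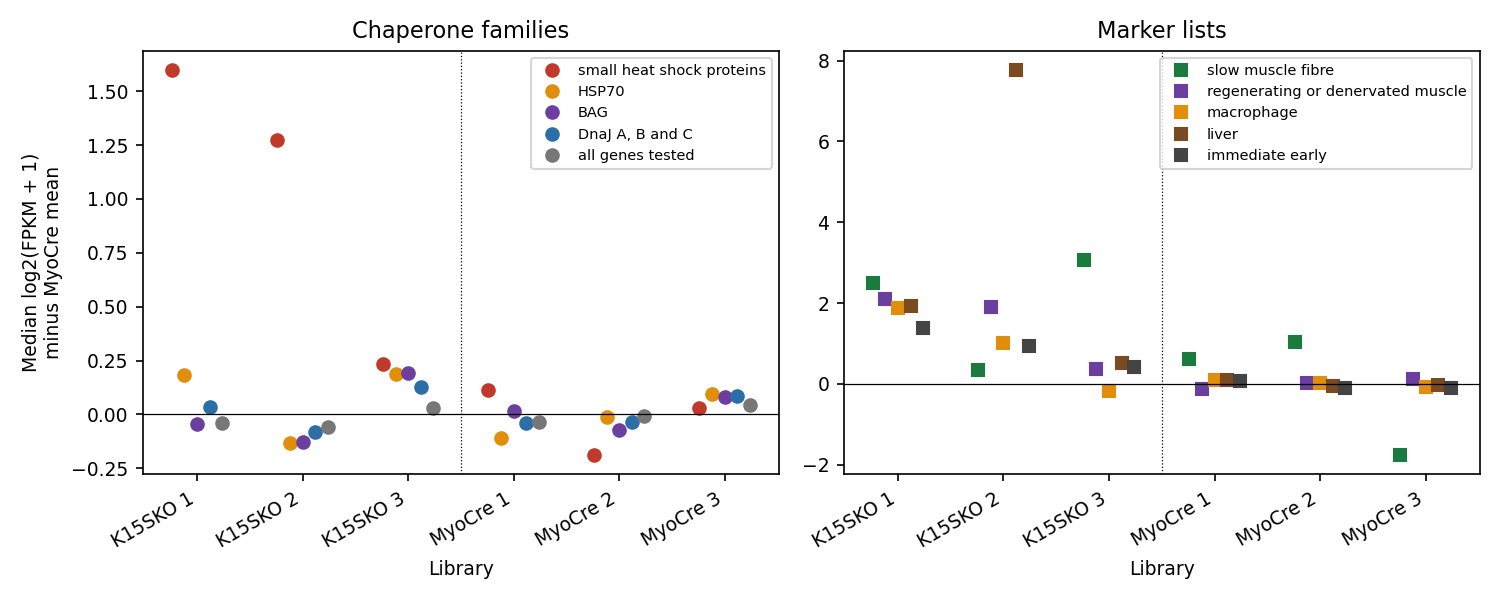
Median difference from the MyoCre mean on the log2(FPKM + 1) scale in each library for chaperone families and all genes tested (left) and for marker lists (right); the left and right panels have different vertical scales. The small heat shock protein median is high in K15SKO 1 and 2 (1.60 and 1.28), as is that of regenerating or denervated muscle (2.10 and 1.90). The slow-fibre median is 2.50, 0.35 and 3.08 in K15SKO 1 to 3.

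The summed level of the HSP70 family was 605, 589.7 and 728 FPKM across K15SKO 1 to 3, versus 631, 568 and 701 FPKM across MyoCre 1 to 3, and the median log2 difference of its 13 genes was 0.18, against −0.015 for all genes tested. Hspa8, the constitutive cytosolic HSP70 and the most abundant of the family, was at 263, 274 and 350.2 FPKM across K15SKO 1 to 3, versus 338, 254 and 355 FPKM across MyoCre 1 to 3. The log2 difference was −0.09 (SE 0.19, limma adjusted p = 0.784).

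The stress-inducible genes Hspa1a and Hspa1b were low in every library. Hspa1a was at 6.84, 1.44 and 2.88 FPKM across K15SKO 1 to 3, versus 1.95, 1.57 and 5.03 FPKM across MyoCre 1 to 3, and Hspa1b at 6.68, 1.38 and 1.96 FPKM, against 1.07, 0.975 and 3.32 FPKM across MyoCre 1 to 3. Both were highest in K15SKO 1 and next in MyoCre 3, so the groups overlapped (limma adjusted p = 0.794 and 0.552). The pair are near-identical copies, whose reads the authors' counting could split, and 247 of 250 bases before their start sites were identical. Their neighbour Hspa1l, a paralogue best known from testis, was at 17.5, 19.1 and 10.6 FPKM across K15SKO 1 to 3, versus 15.2, 10.5 and 14.1 FPKM across MyoCre 1 to 3.

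Of the remaining HSP70 genes, Hspa2 and Hspa13 had an unadjusted p under 0.05. Hspa2, best known from germ cells, was at 4.24, 1.53 and 2.23 FPKM across K15SKO 1 to 3, versus 1.38, 1.28 and 0.746 FPKM across MyoCre 1 to 3 (log2 difference 0.73, SE 0.29, limma adjusted p = 0.295). Hspa12b, an endothelial member, was at 2.80, 2.25 and 5.87 FPKM across K15SKO 1 to 3, versus 4.45, 4.84 and 5.91 FPKM across MyoCre 1 to 3. The endothelial marker sum was 28.2, 30.9 and 57.4 FPKM across K15SKO 1 to 3, versus 48.4, 38.8 and 48.4 FPKM across MyoCre 1 to 3. The part of endothelial transcripts in the Hspa12b level was not tested. Hspa12a, Hspa14 and the exchange factors Hspa4 and Hspa4l differed by −0.17, 0.14, 0.18 and 0.20 on the log2 scale (limma adjusted p of 0.400 to 0.656).

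Members of the endoplasmic reticulum differed in direction. A partial list of 8 (Hspa5, Hspa13, Hsp90b1, Dnajb9, Dnajb11, Dnajc1, Dnajc3 and Dnajc10) was grouped after the values were seen. It leaves out other members of that compartment, such as Dnajb12 and Dnajb14. Of the 8, 6, 4 and 3 lay below every MyoCre library in K15SKO 1 to 3, and 1, 2 and 1 lay above. The backgrounds for below were 43.2%, 43.8% and 25.3% of all genes tested. Dnajb9, a cochaperone of the reticulum induced by unfolded proteins, was at 19.0, 21.4 and 31.5 FPKM across K15SKO 1 to 3, versus 34.3, 40.8 and 35.4 FPKM across MyoCre 1 to 3, with no overlap (log2 difference −0.63, SE 0.20, limma adjusted p = 0.272). Hspa5, the reticulum HSP70 known as BiP, was at 53.5, 49.5 and 82.1 FPKM across K15SKO 1 to 3, versus 64.1, 77.3 and 86.8 FPKM across MyoCre 1 to 3, so K15SKO 3 sat inside the MyoCre range (log2 difference −0.32, SE 0.22, limma adjusted p = 0.438). Hspa13, a truncated microsomal HSP70, was at 3.34, 3.71 and 3.87 FPKM across K15SKO 1 to 3, versus 4.50, 5.67 and 4.59 FPKM across MyoCre 1 to 3, again with no overlap (log2 difference −0.35, SE 0.12, limma adjusted p = 0.276). Dnajb11, a BiP cochaperone, had values on the other side, at 27.0, 27.9 and 22.9 FPKM across K15SKO 1 to 3, versus 19.2, 19.2 and 23.9 FPKM across MyoCre 1 to 3 (log2 difference 0.31, SE 0.13, limma adjusted p = 0.309). Hsp90b1, the HSP90 of the reticulum, was at 38.1 ± 0.834 FPKM in K15SKO and 35.8 ± 3.55 FPKM in MyoCre (SD, n = 3 each).

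Mitochondrial chaperones gave mixed values. Hspe1, the cap of the mitochondrial chaperonin, was at 102, 112 and 60.3 FPKM across K15SKO 1 to 3, versus 62.1, 57.2 and 63.6 FPKM across MyoCre 1 to 3 (log2 difference 0.53, SE 0.24, limma adjusted p = 0.315). Hspd1, the barrel of the same complex, was at 75.0, 83.1 and 83.6 FPKM across K15SKO 1 to 3, versus 66.3, 72.8 and 79.9 FPKM across MyoCre 1 to 3 (log2 difference 0.14, SE 0.12, limma adjusted p = 0.501). The pair sit head to head on chromosome 1 with gene bodies that overlap by 112 bases, and both K15SKO 1 and K15SKO 2 lay above every MyoCre library for Hspe1, but for Hspd1 K15SKO 1 lay within their range. Hspa9, the mitochondrial HSP70, was at 204, 197 and 222 FPKM across K15SKO 1 to 3, versus 166, 173 and 184 FPKM across MyoCre 1 to 3, with no overlap (log2 difference 0.25, SE 0.11, limma adjusted p = 0.313). Dnaja3 and Dnajc15, J-domain proteins of the mitochondrion, differed by 0.02 and −0.18 on the log2 scale (limma adjusted p of 0.918 and 0.553).

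Hsp90ab1, the constitutive cytosolic HSP90 and rank 4 of the 71 genes by mean level, was at 626, 692 and 554 FPKM across K15SKO 1 to 3, versus 443, 398 and 557 FPKM across MyoCre 1 to 3. K15SKO 3 and MyoCre 3 overlapped (log2 difference 0.43, SE 0.17, limma adjusted p = 0.294). Hsp90aa1, the inducible form, was at 13.5, 9.33 and 10.7 FPKM across K15SKO 1 to 3, versus 7.54, 7.05 and 14.2 FPKM across MyoCre 1 to 3 (limma adjusted p = 0.606). Hsph1, the HSP110 that recycles HSP70, was at 51.5, 52.2 and 34.0 FPKM across K15SKO 1 to 3, versus 36.4, 27.0 and 39.0 FPKM across MyoCre 1 to 3 (log2 difference 0.41, SE 0.22, limma adjusted p = 0.359). As for Hspe1, K15SKO 1 and 2 were above the MyoCre libraries and K15SKO 3 was not.

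In the BAG family, Bag2, which inhibits the ubiquitin ligase CHIP, was the single gene with an unadjusted p under 0.05. It was at 17.9, 15.3 and 11.5 FPKM across K15SKO 1 to 3, versus 9.84, 10.9 and 11.3 FPKM across MyoCre 1 to 3, with no overlap (log2 difference 0.42, SE 0.17, limma adjusted p = 0.293). Bag3, the partner of Hspb8, was at 94.9, 63.9 and 86.2 FPKM across K15SKO 1 to 3, versus 74.3, 68.1 and 73.0 FPKM across MyoCre 1 to 3, so K15SKO 2 was below and the other K15SKO libraries above (log2 difference 0.17, SE 0.17, limma adjusted p = 0.574). Bag1, Bag4, Bag5 and Bag6 differed by 0.11, −0.10, −0.24 and −0.0051 on the log2 scale (limma adjusted p of 0.460 to 0.984).

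Among the 38 DnaJ genes, 3 were higher (7.89%) and 1 lower (2.63%) at an unadjusted p under 0.05. The share of higher genes was near its background of 8.43%, and that of lower genes was under its background of 8.12%. In 10 of these DnaJ genes (26.3%) every K15SKO value lay on the same side of all MyoCre values, as in 24.7% of all genes tested. The median log2 difference was 0.00198, and summed levels were 883, 861 and 1043 FPKM across K15SKO 1 to 3, versus 911, 921 and 961 FPKM across MyoCre 1 to 3. Dnaja4, a cochaperone of HSP70 whose start-site window held 2 heat shock elements, had the smallest p of the DnaJ genes. It was at 90.3, 84.5 and 53.7 FPKM across K15SKO 1 to 3, versus 42.2, 36.9 and 44.7 FPKM across MyoCre 1 to 3. All K15SKO libraries were above all MyoCre libraries, with K15SKO 3 the nearest (log2 difference 0.84, SE 0.21, limma adjusted p = 0.269).

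Dnajc2, which works at the ribosome on nascent chains, was at 22.6, 20.6 and 14.9 FPKM across K15SKO 1 to 3, versus 11.5, 10.99 and 13.5 FPKM across MyoCre 1 to 3, with no overlap (log2 difference 0.63, SE 0.17, limma adjusted p = 0.272). Its HSP70 partner at the ribosome, Hspa14, was at 6.09 ± 0.449 FPKM in K15SKO and 5.45 ± 0.280 FPKM in MyoCre (SD, n = 3 each). Dnajc12, a partner of aromatic amino acid hydroxylases, was at 13.3, 13.2 and 14.1 FPKM across K15SKO 1 to 3, versus 11.01, 10.4 and 11.9 FPKM across MyoCre 1 to 3. Its 3 K15SKO values lay close together (log2 difference 0.27, SE 0.09, limma adjusted p = 0.279).

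Several DnaJ genes had K15SKO 1 and 2 below the MyoCre libraries and K15SKO 3 within or above them. Dnajc27, a small GTPase with a J domain, was at 22.0, 21.2 and 40.6 FPKM across K15SKO 1 to 3, versus 38.0, 36.5 and 42.7 FPKM across MyoCre 1 to 3 (log2 difference −0.53, SE 0.25, limma adjusted p = 0.329). Dnajb5, a cytosolic J-domain protein abundant here, was at 69.0, 80.3 and 128 FPKM across K15SKO 1 to 3, versus 120.3, 106 and 101 FPKM across MyoCre 1 to 3. Dnaja2 was at 66.6, 76.7 and 113 FPKM across K15SKO 1 to 3, versus 95.1, 108 and 107 FPKM across MyoCre 1 to 3, and Dnajc13, an endosomal protein, at 4.36, 3.97 and 5.87 FPKM, against 5.44, 6.19 and 6.96 FPKM. Limma adjusted p for these last 3 genes was 0.501, 0.434 and 0.317.

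Dnajb1, the classical partner of stress-induced HSP70, was at 4.19, 2.88 and 3.10 FPKM across K15SKO 1 to 3, versus 2.70, 2.70 and 2.65 FPKM across MyoCre 1 to 3 (log2 difference 0.24, SE 0.14, limma adjusted p = 0.378). Dnajb6, mutated in a human limb-girdle muscular dystrophy, was at 12.6, 10.4 and 10.4 FPKM across K15SKO 1 to 3, versus 9.35, 8.92 and 10.1 FPKM across MyoCre 1 to 3 (log2 difference 0.22, SE 0.11, limma adjusted p = 0.346). Both had no overlap between groups, as had Dnajc5 (cysteine string protein), Dnajc7, Dnajc16 and Dnajb14. The log2 differences of these 4 were 0.23, 0.24, −0.20 and −0.13 (limma adjusted p of 0.310 to 0.466). Dnajb2, Dnajb12, Dnaja1 and Dnajb4 overlapped, with log2 differences of 0.26, −0.30, −0.19 and 0.01. Dnajc22 passed the 1 FPKM threshold through a single library: it was at 0.192, 5.77 and 0 FPKM across K15SKO 1 to 3, versus 0.0305, 0.0255 and 0 FPKM across MyoCre 1 to 3, and the liver genes were also highest in K15SKO 2.

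**Figure D5:**
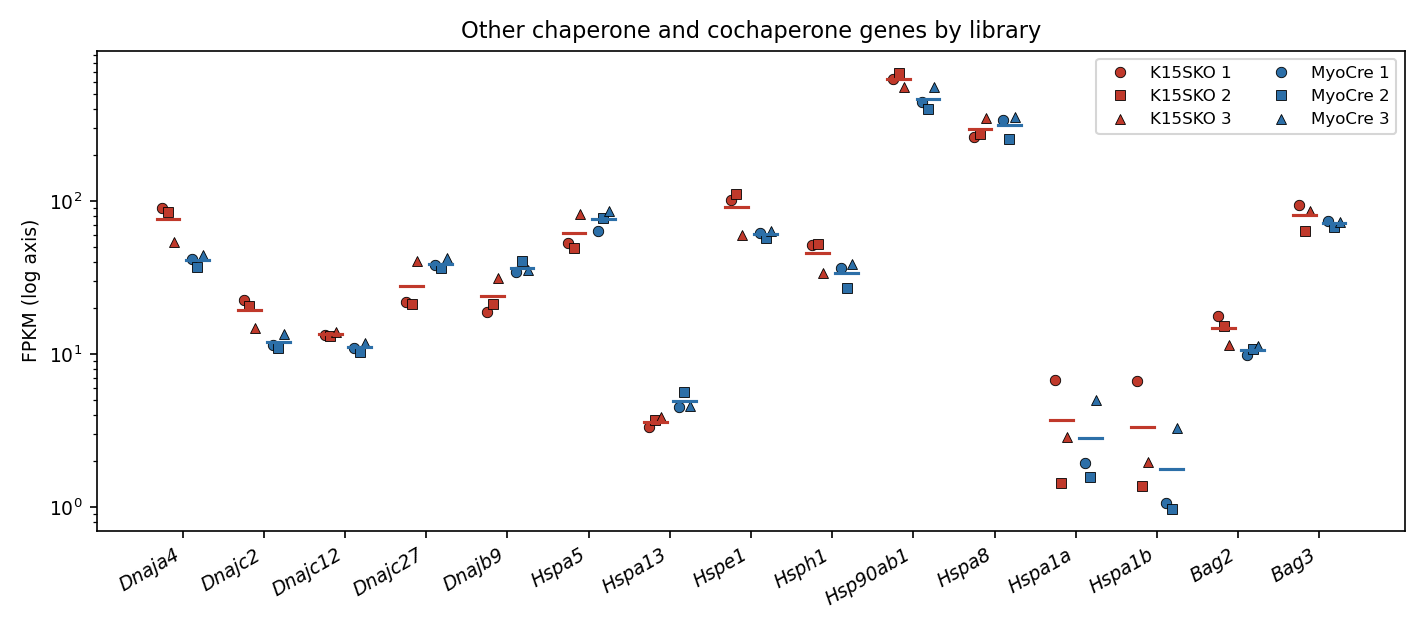
Level in FPKM (log axis) of 15 genes outside the small heat shock protein family in the 3 K15SKO libraries (red) and the 3 MyoCre libraries (blue), with horizontal bars for group means. K15SKO 1 and 2 lie above the MyoCre libraries for Dnaja4, Dnajc2, Dnajc12, Hspe1, Hsph1, Hsp90ab1 and Bag2 and below them for Dnajc27, Dnajb9, Hspa5 and Hspa13.

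Genes that work with these chaperones were read from 6 further lists, and 0 of their 68 tested genes passed limma's adjusted p of 0.05, with 11 higher and 3 lower at an unadjusted p under 0.05, against backgrounds of 8.43% and 8.12%. Heat shock factors drive chaperone genes. Hsf1, the main stress-responsive factor, was at 19.6, 19.7 and 22.8 FPKM across K15SKO 1 to 3, versus 20.5, 17.6 and 22.2 FPKM across MyoCre 1 to 3. Hsf2 was at 15.95 ± 1.56 against 12.7 ± 1.81 FPKM and Hsf4 at 4.92 ± 0.834 against 5.85 ± 0.483 FPKM, K15SKO against MyoCre (SD, n = 3 each, limma adjusted p = 0.307 and 0.392).

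Subunits of the cytosolic chaperonin, which folds actin and tubulin, and of its partner prefoldin were higher for 5 of 14 genes at an unadjusted p under 0.05 and lower for 0, against backgrounds of 8.43% and 8.12%, and the groups did not overlap for 9 of 14, all with higher K15SKO values, where 13.4% of all genes did so. Cct8 was at 90.0, 77.9 and 63.1 FPKM across K15SKO 1 to 3, versus 50.5, 55.3 and 57.3 FPKM across MyoCre 1 to 3 (log2 difference 0.48, SE 0.15, limma adjusted p = 0.273). Cct3 and Cct7 differed by 0.37 and 0.30 on the log2 scale (limma adjusted p of 0.286 and 0.287). The medians of this list in K15SKO 1 to 3 were 0.24, 0.20 and 0.15, against −0.04, −0.02 and 0.05 in MyoCre 1 to 3.

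Clients and partners of muscle chaperones included the largest differences of these lists. Flnc, filamin C, a client of Bag3 and Hspb8, was at 288, 182 and 183 FPKM across K15SKO 1 to 3, versus 128, 89.2 and 122.6 FPKM across MyoCre 1 to 3 (log2 difference 0.92, SE 0.24, limma adjusted p = 0.269). Des, desmin, the filament bound by alpha-B crystallin, was at 2376, 2018 and 1437 FPKM across K15SKO 1 to 3, versus 1191, 1005 and 1184 FPKM across MyoCre 1 to 3 (log2 difference 0.76, SE 0.21, limma adjusted p = 0.272). For both genes all K15SKO libraries were above all MyoCre libraries, K15SKO 3 included. Vim, vimentin, was at 65.7 ± 36.4 FPKM in K15SKO and 37.0 ± 5.19 FPKM in MyoCre, with overlap (SD, n = 3 each).

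Of 20 HSP90 and HSP70 cochaperones without a J domain, 2 were higher and 2 lower at an unadjusted p under 0.05 (10% each), near the backgrounds of 8.43% and 8.12%. Stub1, the ubiquitin ligase CHIP, was at 60.8 ± 2.61 FPKM in K15SKO and 49.0 ± 5.01 FPKM in MyoCre, and St13, an HSP70-interacting protein, at 39.9 ± 5.06 FPKM in K15SKO and 30.04 ± 1.80 FPKM in MyoCre (SD, n = 3 each, limma adjusted p = 0.288 and 0.275). Tomm34 was at 6.05 ± 0.716 FPKM in K15SKO and 8.38 ± 0.396 FPKM in MyoCre (SD, n = 3 each, limma adjusted p = 0.269). Of 13 further reticulum folding genes 1 was higher (7.69%) and 0 lower at an unadjusted p under 0.05. In K15SKO 1 to 3, 10, 7 and 2 of these 13 lay above every MyoCre library, where 37.2%, 33.4% and 36.1% of all genes did, and 2, 1 and 5 lay below. This list had the disulphide isomerase gene Pdia4 at 5.71 ± 1.22 FPKM in K15SKO and 3.70 ± 0.571 FPKM in MyoCre, and P4hb and Calr with log2 differences of 0.43 and 0.24. Of 9 mitochondrial folding and proteolysis genes, 1 was higher and 1 lower (11.1% each), again beside 8.43% and 8.12% of all genes. The higher one was Grpel1, the exchange factor of Hspa9, at 27.2 ± 0.569 FPKM in K15SKO and 23.0 ± 0.527 FPKM in MyoCre, and the lower one was Clpx, at 23.8 ± 3.50 FPKM in K15SKO and 31.5 ± 3.31 FPKM in MyoCre (SD, n = 3 each, limma adjusted p = 0.288 and 0.283). Yme1l1 had a log2 difference of −0.29 (limma adjusted p = 0.310).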

How the data were processed

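RNA sequencing measured transcript levels in 3 K15SKO and 3 MyoCre libraries of quadriceps. The authors deposited a gene table whose values are taken as FPKM, from the tools that the submitters' processing notes name (STAR, Cufflinks and Cuffdiff, with the mm10 build) and from the values. Their versions and filters, the annotation and the strandedness were not given in the sources used here. RNA was, per the labels' protocols, isolated with a Roche HighPure kit and made into Illumina libraries. Columns were matched to samples by their descriptions, and 0 columns belonged to no sample. FPKM keeps no counts, so counting error cannot be weighted or given as an interval.

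The 11607 genes whose mean reached 1 FPKM entered limma 3.58.1 in R 4.3.3 as log2(FPKM + 1), with an intensity trend in eBayes and two-sided p-values adjusted by Benjamini-Hochberg; calls are at 0.05. The added 1 makes the log2 change of low genes look smaller than it is. Over single genes an exact permutation test of 3 against 3 libraries could reach 0.1 at the smallest and was not used. Coordinates came from GENCODE M21 on GRCm38, the mm10 assembly (23193 IDs matched without version), and upstream windows from RefSeq on GRCm38.p6. Python 3.11.15 with pandas 2.3.3 and numpy 2.4.6 made the tables and matplotlib 3.10.9 the plots. The fit and the motif search were tested on simulated data or known sequences.

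The genes and lists were chosen with earlier results of these data known. Named genes were all small heat shock protein, HSP70, HSP90, HSP110, chaperonin and BAG genes, the 16 DnaJ genes with the smallest p and the 8 with the highest mean, up to 3 genes per further list by p and up to 2 per marker list by level. Alternatives tried were leaving out each library, a replicate block, array weights, robust eBayes, eBayes with no trend, quantile or median-of-ratios scaling, a minimum mean of 5 FPKM or none, and pseudocounts of 0.5 or 0.1.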

Additional observations from a re-analysis of the deposited data

How the results depend on the processing

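With 3 libraries a group and one K15SKO library close to the MyoCre libraries, the counts of calls depend on that library. The count of heat shock and DnaJ genes called was 0 with all 6 libraries, 0 to 20 with each library left out and 16 with array weights, which weigh libraries by their fit. Each count above 0 with a library left out came from the fit without K15SKO 3. For all genes tested, 6 were called with all libraries, 3 to 2743 with each library left out, 2398 with array weights, 3 with no filter and 3 with the replicate block. Under the other alternatives the count of all genes called was 5 to 7 and that of the 71 genes was 0. The median log2 difference of the 71 genes was 0.11, and 0.04 to 0.16 under the alternatives.

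The labels do not say that the replicate numbers pair the libraries, so the block was not used for the main values. The correlations of same-numbered deviations were 0.0024, 0.0851 and 0.0942, none above 0.1. Each K15SKO library correlated best with the MyoCre library of its own number, though K15SKO 1 had 0.0003 with MyoCre 2, close to its 0.0024. MyoCre 2 and 3 also correlated best with their own numbers, but MyoCre 1 correlated best with K15SKO 2, at 0.0066. Deviations within a group cancel out, so these correlations depend on one another and cannot settle whether the libraries are paired. With the replicate block 0 of the 71 genes were called.

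Some uncalled genes near 0 changed sign. The log2 difference of Bag1 was −0.0235 with array weights and −0.0396 to 0.229 with each library left out. The log2 difference of Bag6 was 0.0235 with median-of-ratios scaling and −0.136 to 0.0612 with each library left out. The log2 difference of Dnaja3 was −0.00344 with quantile normalization, −0.0132 with array weights and −0.0514 to 0.0672 with each library left out. The log2 difference of Dnajb4 was −0.0322 with quantile normalization, −0.183 with array weights and −0.154 to 0.213 with each library left out. With each library left out, the log2 difference of Hsf1 was −0.0474 to 0.113, the log2 difference of Hspa1a was −0.217 to 0.624 and the log2 difference of Hspa8 was −0.240 to 0.00214. The share of genes with a heat shock element was 25% with 2 units and 5.36% with 3. Depth limits low genes such as Hspa1a, Hspa1b and Hspa2, whose counting error is unknown.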
